A study of Mus musculus with 49 samples.

Results

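The probe sets of Epha2, Dgcr6, Reln and Mfsd4a were followed through every sample group of a study of immature B cells that lose their antigen receptor. They were taken as all probe sets that match 1 of these genes and no other, which gave 1 probe set per gene: 4 of 9977 on the U74Av2 arrays, and the same 4 of 12588 on the U74A arrays, where 7417 and 8220 genes had a probe set of their own. They were chosen by their signals, which were higher in receptor-deleted (Cre-Mlo) than in receptor-bearing (Ctrl-Mhi) cells, so the values of those arrays are given as a description, and the 4 genes were tested only on arrays that the choice did not use. Such arrays lie outside that contrast, but earlier results of these data were known when the genes were chosen. It is therefore not established that the tests are independent of the choice.

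Epha2 is a receptor tyrosine kinase that binds ephrin-A ligands on neighboring cells. Reln encodes reelin, a large secreted glycoprotein best known for guiding migrating neurons through the receptors Vldlr and Lrp8 and the adaptor Dab1. Dgcr6 is named for the DiGeorge syndrome critical region, the chromosomal segment lost in that human syndrome, and Mfsd4a belongs to the major facilitator superfamily of membrane transporters. None of the 4 is a standard marker of a B cell stage; immature B cells normally silence the recombination machinery once surface IgM is displayed, and a cell that loses its receptor can return to a program of the earlier pre-B cell.

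The 37 U74Av2 arrays came from 10 groups of mouse bone marrow B lineage cells. Ctrl-Mhi cells were sorted as IgM-high from cultures of mice with the B1-8h heavy chain and 3-83(kappa) light chain genes (the study's methods call this heavy chain allele B1-8f and describe it as floxed, so that Cre deletes it), and Cre-Mhi and Cre-Mlo cells were the IgM-high and IgM-low sorts from mice that carried the Mx-Cre transgene in addition, whose Cre recombinase is induced by interferon. All 3 groups (4 arrays each) grew in IL-7 and were then kept without it for 2 d in interferon-αβ, so the controls saw interferon too, and the sort gate on surface IgM set Cre-Mhi and Cre-Mlo apart. B6-Mneg cells (3 arrays) were B220+ cells without IgM sorted from IL-7 cultures of C57BL/6 marrow. GFPneg and GFPpos cells (3 arrays each) carried an anti-HEL (hen egg lysozyme) immunoglobulin transgene and a Rag2-GFP reporter and were cultured for 1 d without IL-7; GFPpos cells received herbimycin A, a tyrosine kinase inhibitor, and were sorted as IgM+ and GFP+, whereas GFPneg cells received none and were sorted as IgM+ without GFP, so drug and gate cannot be told apart. FxD (B220+CD43negIgMneg pre-B) and FxE (B220+IgM+IgDneg immature B) cells (3 arrays each) were sorted directly from Balb/c marrow, and their RNA was amplified in 2 rounds. FxE Ctrl (4 arrays) and FxE HA (6 arrays) were immature B cells of Bcl-2 transgenic mice, cultured for 24 or 48 h without or with herbimycin A. The U74A arrays, 3 per group, held HEL-Mhi cells (IgM-high, from IL-7 cultures of anti-HEL immunoglobulin mice), HEL-Mlo cells (IgMa-low, from HEL-Ig cultures), HEL 48h cells (HEL-Ig/Rag2-GFP cells sorted as GFP+ after 48 h with 1 µg/ml HEL) and Ctrl 48h cells (the same culture without antigen, sorted without GFP). The labels of HEL-Mlo, HEL 48h and Ctrl 48h give 5 d of culture in 16 ng/ml IL-7. HEL 48h and Ctrl 48h cells were then re-cultured for the 48 h. Mice were 4 to 8 weeks of age.

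As a check of the labels, the probe set annotated as Ighv1-54, whose probes are shared by a family of heavy chain variable genes, gave 43672 to 59359 units in Ctrl-Mhi, 24518 to 34565 in Cre-Mhi and 898 to 1262 in Cre-Mlo cells. Median signals of the 37 U74Av2 arrays lay between 345.9 and 544 units. The B cell gene Cd79a had means of 51461 units in Cre-Mlo, 57416 in Cre-Mhi and 77897 in Ctrl-Mhi cells. It was 1 of 8 B cell markers measured, and it was not called between Cre-Mlo and Ctrl-Mhi (limma, adjusted p = 0.0764). Of the 8, 3 were called lower in Cre-Mlo and 1 higher, where 8.33% of all probe sets were called in either direction. The log2 differences were -5.33 for Ms4a1, -2.0958 for Cd22, -0.79 for Ptprc and 0.95 for Blnk. Sums over 14 myeloid marker genes were 2733 to 5799 units in the 6 groups grown in IL-7 but 30055 to 283475 units in the 4 groups from fresh marrow (FxD, FxE, FxE Ctrl, FxE HA), and those of 5 erythroid genes were 56904 to 157407 units in FxD and FxE. Signals are MAS5 units, scaled by the authors to a common target per array, and one probe set's units cannot be set against another's. In sorted pools a higher signal from more cells and from more RNA per cell cannot be told apart.

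The 4 genes sit on 4 chromosomes, and the 250 bases upstream of their annotated starts were read from the RefSeq promoter table (GRCm38.p6) to show what sequence they share. The windows are chr4:141300971-141301220 (plus strand) for Epha2, chr16:18066153-18066402 and chr16:18052610-18052859 (plus strand) for 2 starts of Dgcr6, chr5:22344706-22344955 (minus strand) for Reln and chr1:132068063-132068312 (minus strand) for Mfsd4a. Each is given 5′ to 3′ toward the start, with capitals for GGGCGG (the Sp1 motif) or CANCTG (the E2A E-box) on either strand.
Epha2: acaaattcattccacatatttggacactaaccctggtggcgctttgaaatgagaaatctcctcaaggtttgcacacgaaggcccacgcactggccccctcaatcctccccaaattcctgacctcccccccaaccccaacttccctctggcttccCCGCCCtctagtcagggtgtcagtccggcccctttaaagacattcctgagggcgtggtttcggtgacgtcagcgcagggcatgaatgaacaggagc
Dgcr6, first start: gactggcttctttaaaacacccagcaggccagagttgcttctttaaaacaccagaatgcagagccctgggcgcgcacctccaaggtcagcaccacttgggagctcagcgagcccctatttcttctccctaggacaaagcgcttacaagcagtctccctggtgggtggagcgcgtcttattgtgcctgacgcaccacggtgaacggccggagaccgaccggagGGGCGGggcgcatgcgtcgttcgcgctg
Dgcr6, second start: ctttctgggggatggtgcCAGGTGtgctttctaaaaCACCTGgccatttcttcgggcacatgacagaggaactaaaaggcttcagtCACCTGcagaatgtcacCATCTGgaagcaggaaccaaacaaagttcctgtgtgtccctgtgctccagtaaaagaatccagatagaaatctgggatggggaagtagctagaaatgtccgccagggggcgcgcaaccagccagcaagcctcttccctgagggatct
Reln: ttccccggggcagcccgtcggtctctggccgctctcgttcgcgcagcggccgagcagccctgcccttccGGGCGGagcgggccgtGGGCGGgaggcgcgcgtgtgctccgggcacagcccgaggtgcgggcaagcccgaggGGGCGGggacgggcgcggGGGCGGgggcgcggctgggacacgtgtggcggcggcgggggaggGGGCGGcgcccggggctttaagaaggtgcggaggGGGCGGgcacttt
Mfsd4a: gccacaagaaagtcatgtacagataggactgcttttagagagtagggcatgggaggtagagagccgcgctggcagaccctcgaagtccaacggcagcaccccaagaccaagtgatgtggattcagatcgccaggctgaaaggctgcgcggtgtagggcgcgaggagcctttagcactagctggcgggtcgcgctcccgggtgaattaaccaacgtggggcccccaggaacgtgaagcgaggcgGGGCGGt

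The Reln window stood apart by base composition: 80.0% of it was G or C, which 1.1% of the 32851 windows of the table exceeded, and it held 6 matches to GGGCGG. The Epha2, first Dgcr6 and Mfsd4a windows were 55.6%, 60.4% and 60.8% GC and held 1 match each, against 32.7% of all windows with at least 1. The second Dgcr6 window had no GGGCGG but 4 matches to CANCTG, a motif found in 44.8% of windows and in none of the other 4 shown. None of the 5 windows held TGANTCA (AP-1, 6.75% of all windows), GTAAACA (FoxO, 3.17%), the interferon-stimulated response element (2.98%) or TATAAA (12.4%). These are matches of letters within 250 bases and do not show binding.

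In the arrays from which the genes were picked, all 4 were several-fold higher in Cre-Mlo than in Ctrl-Mhi cells. The Epha2 signals were 1607, 943, 942 and 1723 units in Cre-Mlo against 59.9, 324, 107 and 122 units in Ctrl-Mhi cells, a difference of 3.31 on the log2 scale. Dgcr6 gave 1349, 1313, 1301 and 1243 units in Cre-Mlo and 121, 123, 293 and 329 units in Ctrl-Mhi, a log2 difference of 2.74. The Cre-Mlo values of Dgcr6 were close together (SD 44.2 around a mean of 1301) and those of Epha2 farther apart (SD 420 around 1304).

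Reln, the secreted glycoprotein, was measured at 1527, 2442, 4360 and 2643 units in Cre-Mlo and at 737, 37.7, 819 and 177 units in Ctrl-Mhi cells, a log2 difference of 3.34. Mfsd4a gave 836, 806, 992 and 857 units in Cre-Mlo and 179, 184, 80.5 and 42.8 units in Ctrl-Mhi cells, a log2 difference of 3.07. Ctrl-Mhi was thus uneven for Reln, with 2 arrays above 700 and 2 below 200 units, and its log2 difference was 2.43 without the second Ctrl-Mhi array and 3.91 without the third. No Cre-Mlo array of any of the 4 genes overlapped Ctrl-Mhi. Across the table, 8.33% of probe sets were called between these groups (limma, adjusted p under 0.05), 4.23% as higher, and 8.43% lay higher in Cre-Mlo without overlap; nothing is read from the members' counts here because the contrast chose them.

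Cre-Mhi cells, from the same Mx-Cre mice but with IgM still on the surface, lay closer to Ctrl-Mhi than to Cre-Mlo for all 4 genes. They are not a control with the receptor gene intact. The paper measured that part of these cells had already deleted the floxed allele, and it describes their expression as intermediate. Epha2 was 116, 129, 118 and 601 units, Dgcr6 149, 303, 238 and 284 units, Reln 275, 434, 611 and 216 units, and Mfsd4a 78.1, 176, 230 and 222 units. Each of these sets overlapped the Ctrl-Mhi arrays, and the log2 differences from Ctrl-Mhi were 0.51, 0.27, 0.49 and 0.66 in the same order. The fourth Cre-Mhi array was high for Epha2 alone among the 4 genes, and it remained below the lowest Cre-Mlo value. Against Cre-Mhi the Cre-Mlo arrays were higher by 2.80 (Epha2), 2.47 (Dgcr6), 2.85 (Reln) and 2.42 (Mfsd4a) in log2, without overlap, where 6.08% of all probe sets were called in either direction, 3.14% as higher, and 7.38% lay higher without overlap; these arrays are shared with the choice of genes and were not tested.

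**Figure D1:**
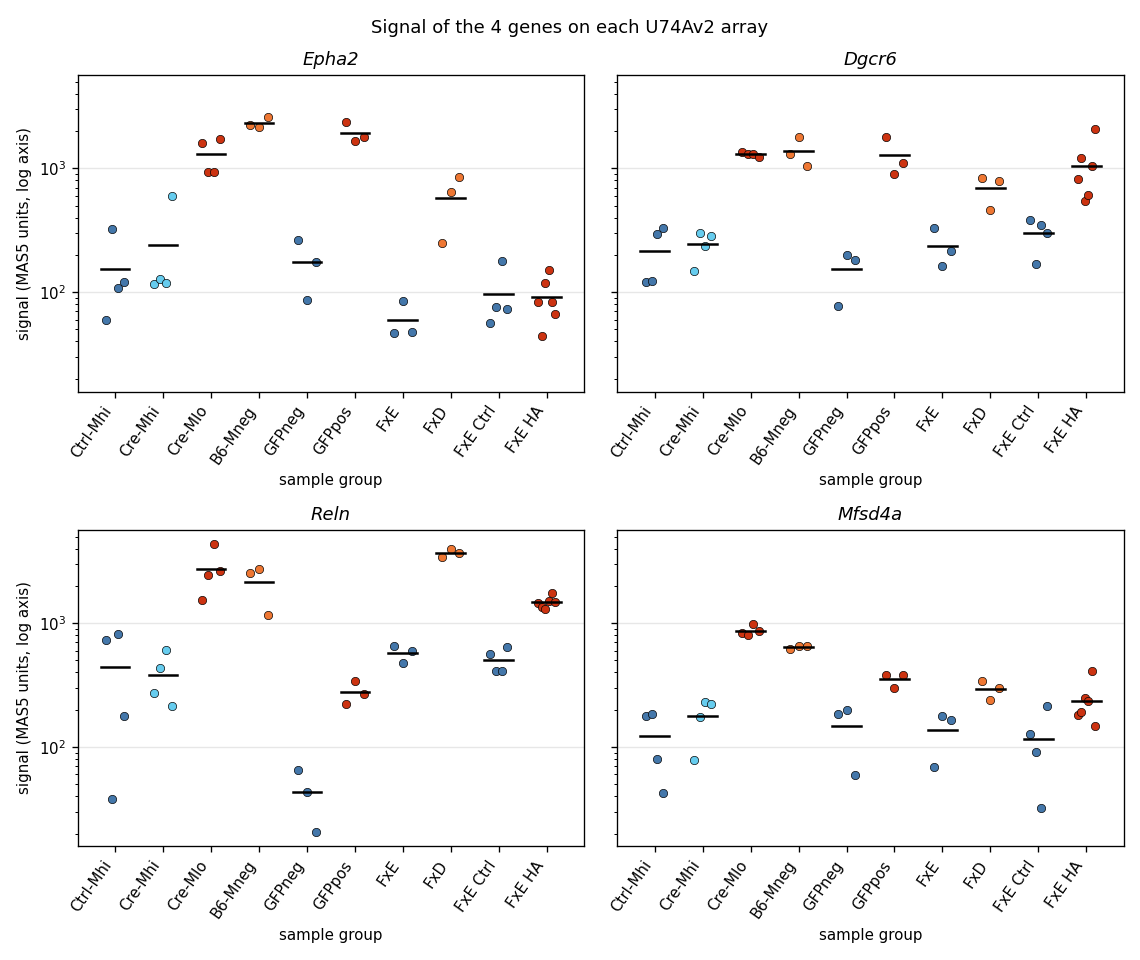
Signals of Epha2, Dgcr6, Reln and Mfsd4a (MAS5 units, log axis) on each of the 37 U74Av2 arrays, by sample group; each point is 1 array and each bar a group mean. Blue marks IgM+ cells without drug, light blue Cre-Mhi, red Cre-Mlo or herbimycin A, and orange cells sorted without IgM; Epha2 stays between 44.4 and 180 units in FxE Ctrl and FxE HA, while Reln in FxE HA lies at 1306 to 1747 units, above all FxE Ctrl arrays.

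The first comparison that the choice did not use asked whether cultured B lineage cells sorted without IgM carried the same signals. B6-Mneg cells were higher than GFPneg cells, the untreated IgM+ culture, for all 4 genes without overlap, and 3 of the 4 passed the test. Across all probe sets 5.04% were called (2.65% as higher) and 12.1% lay higher without overlap. By the study's own criteria, a plain test with a minimum fold and difference, Epha2 and Mfsd4a passed and Dgcr6 and Reln did not (1.16% of all probe sets passed as higher). Reln was 2559, 2724 and 1161 units in B6-Mneg and 65.6, 43.2 and 20.6 units in GFPneg cells, a log2 difference of 5.69 ± 0.54 (SE; limma, adjusted p = 0.00663). The lowest B6-Mneg array was still far above every GFPneg array, and the 95% interval of the fold ran from 20.2 to 133. The GFPneg values lay near the floor of 20 units, and with a floor of 100 the log2 difference was 4.33 (adjusted p = 0.00984), so the size of this fold depends on the floor.

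Epha2 gave 2235, 2143 and 2585 units in B6-Mneg against 263, 87.2 and 177 units in GFPneg cells, higher by 3.86 ± 0.42 (adjusted p = 0.00958). Dgcr6 gave 1299, 1792 and 1054 units against 77.9, 199 and 183 units, higher by 3.25 ± 0.43 (adjusted p = 0.016). For both genes the lowest B6-Mneg array was well clear of the highest GFPneg array. Mfsd4a, at 616, 659 and 656 units against 184, 199 and 59.7 units, differed by 2.31 ± 0.49 and missed the threshold (adjusted p = 0.0647), and without the third GFPneg array it passed (0.0189). The call of Epha2 was lost without B6-Mneg array 2 or 3 (0.0524 and 0.0504) and that of Dgcr6 without any 1 B6-Mneg array or the third GFPneg array (0.0515 to 0.0739). Strain, transgenes and a day without IL-7 differ between these groups as well and cannot be told apart from IgM. Sums over 8 endothelial markers were 7259 to 10285 units in B6-Mneg and 3550 to 5093 in GFPneg cells, with Eng at a mean of 7855 against 2817 units (limma, adjusted p = 0.0703) and Cdh5 at 27.0 against 279.9 units (0.00518). Of the 8, 0 were called higher and 1, Cdh5, lower (2.4% of all probe sets were called lower), and their median log2 difference was -0.10 against -0.05 for all probe sets. The T cell marker Thy1 had means of 1661 and 794.7 units (0.127). Of 7 T cell markers 0 were called, with a median log2 difference of 0.04. The part of these markers in the result was not tested.

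B6-Mneg cells set beside the first arrays showed where Cre-Mlo stood. Epha2 was lower in Cre-Mlo than in B6-Mneg cells by 0.89 in log2 with no overlap (mean 1304 ± 420, n = 4, against 2321 ± 233, n = 3). Mfsd4a was the other way round, 873 ± 82.2 in Cre-Mlo against a mean of 644 in B6-Mneg (616 to 659), again with no overlap. Dgcr6 (1301 ± 44.2 against 1382 ± 376) and Reln (2743 ± 1182 against 2148 ± 859) overlapped. These 4 pairs are descriptions and were not tested.

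Freshly sorted pre-B and immature B cells gave the second comparison that the choice did not use, since FxD cells precede IgM and FxE cells have it. All 4 genes lay higher in FxD without overlap, and 2 passed the test, Reln and Epha2, where 3% of all probe sets were called (1.74% as higher) and 10.8% lay higher without overlap. By the study's criteria Reln and Dgcr6 passed and Epha2 and Mfsd4a did not (2.35% of all probe sets passed as higher). Reln was 3414, 3997 and 3687 units in FxD and 649, 476 and 594 units in FxE, higher by 2.70 ± 0.24 (limma, adjusted p = 0.0107). FxD was the group with the highest mean Reln signal of the 10.

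Epha2 was 251, 646 and 845 units in FxD and 46.9, 84.7 and 47.9 units in FxE, higher by 3.16 ± 0.53 (adjusted p = 0.0362). Although the fold of Epha2 was large, its FxD signals stayed below every Cre-Mlo, GFPpos and B6-Mneg array. Dgcr6 gave 839, 462 and 796 against 332, 163 and 214 units (1.58 ± 0.39, adjusted p = 0.113), and Mfsd4a 343, 238 and 301 against 68.8, 179 and 167 units (1.19 ± 0.43, adjusted p = 0.281). Neither passed, although the 95% intervals of their differences ran from 0.64 to 2.52 and from 0.15 to 2.24 in log2. The Epha2 call was lost without any 1 of the 6 arrays (adjusted p 0.0502 to 0.163) and with a floor of 100 (log2 difference 2.36, 0.109), and the Reln call without FxD array 2 or FxE array 1 or 3 (0.0581 to 0.0943). Summed myeloid markers were 38197 to 80289 units in FxD and 69322 to 283475 in FxE and erythroid markers 56904 to 120182 and 115125 to 157407; 0 of 14 and 0 of 5 of them passed the test by limma (2 and 1 at an unadjusted p under 0.05), and their part in the result was not tested.

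**Figure D2:**
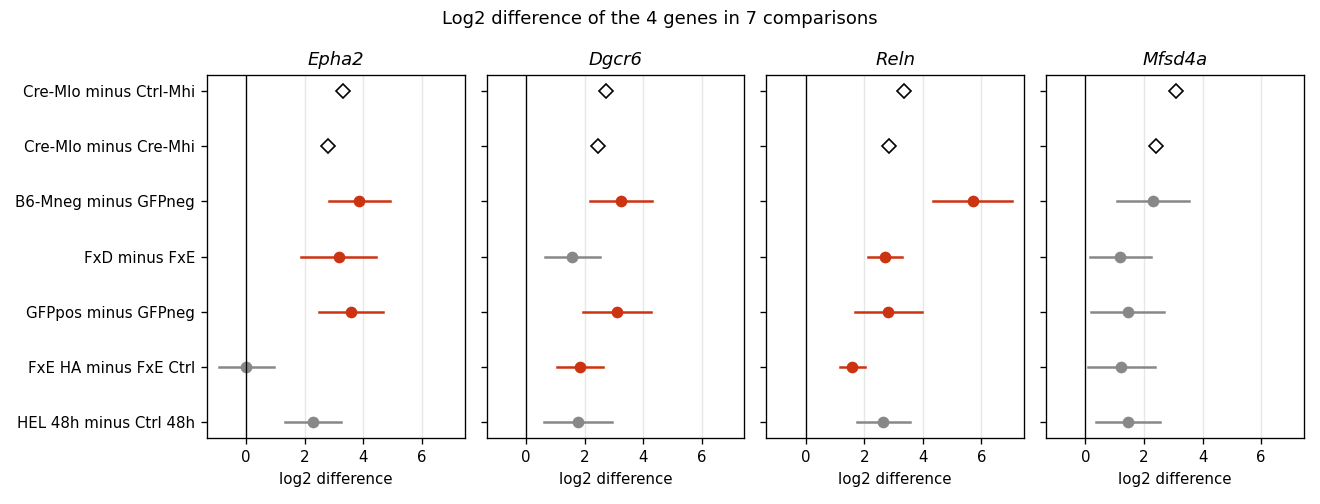
Log2 differences of the 4 genes in 7 comparisons (first group minus second, x axis in log2 units). Circles with bars are limma differences with 95% intervals, red where the adjusted p was under 0.05 and gray where not; open diamonds are the 2 comparisons that chose the genes or share their arrays, drawn without interval or test. Epha2 in FxE HA is the value at 0.00, with a bar from -0.94 to 0.94.

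Herbimycin A tests whether blocking tyrosine kinases, with the receptor left on the surface, is accompanied by the same signals. In GFPpos cells all 4 genes were above GFPneg without overlap and 3 passed the test (2.59% of all probe sets were called, 1.37% as higher, and 14.1% lay higher without overlap). None of the 4 passed by the study's criteria, as 0.641% of all probe sets did as higher. The 3 GFPneg arrays are the same as in the comparison with B6-Mneg, so these comparisons share their controls. Epha2 was 2364, 1651 and 1781 units against 263, 87.2 and 177 units, higher by 3.58 ± 0.43, or 12.0-fold with a 95% interval of 5.66 to 25.4 (limma, adjusted p = 0.0305). Dgcr6 was 1804, 905 and 1113 against 77.9, 199 and 183 units, higher by 3.11 ± 0.46 (adjusted p = 0.0428).

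Reln rose in GFPpos cells from a low base, with 223, 343 and 269.7 units against 65.6, 43.2 and 20.6 units, higher by 2.82 ± 0.46 (adjusted p = 0.0481); with a floor of 100 the difference was 1.46 (0.0278). After this rise its signals in GFPpos cells still lay below every Cre-Mlo, B6-Mneg, FxD and FxE HA array and within the range of Ctrl-Mhi. Mfsd4a gave 379.5, 299.8 and 382 against 184, 199 and 59.7 units and did not pass (1.44 ± 0.50, adjusted p = 0.19; 95% interval 0.19 to 2.69). Leaving out any 1 of the 6 arrays took all 3 calls past the threshold, with adjusted p of 0.0744 to 0.147 and log2 differences of 2.36 to 3.94. Sums over 8 endothelial markers were 6861 to 20651 units in GFPpos and 3661 to 5228 in GFPneg cells, of which Eng carried a mean of 10726 ± 7696 (SD, n = 3) and 2817 ± 1123 (n = 3) units while Cdh5 fell to a mean of 30.7 from 279.9 units (limma, adjusted p = 0.0185). The GFPneg sums differ from those given beside B6-Mneg because the brightest probe set of a gene was picked anew in each comparison. Of the 8 markers, 0 were called higher and 1, Cdh5, lower (1.21% of all probe sets were called lower). Their part in the result was not tested.

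In the immature B cells of Bcl-2 transgenic mice Reln and Dgcr6 rose with the drug, and Epha2 and Mfsd4a did not pass the test (3.37% of all probe sets were called, 1.18% as higher, and 2.33% lay higher without overlap). By the study's criteria Reln passed and the other 3 did not (0.762% of all probe sets passed as higher). Reln ran from 1306 through a median of 1476 to 1747 units in FxE HA against 566, 414, 412 and 637 units in FxE Ctrl, higher by 1.59 ± 0.19 (limma with hours as a factor, adjusted p = 0.00216). Dgcr6 ran from 548 through 928 to 2074 units against 381, 168, 351 and 303 units, higher by 1.84 ± 0.35 (adjusted p = 0.0202). Neither gene overlapped between the groups.

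Epha2, in contrast, ran from 44.4 through 83.3 to 152 units in FxE HA and was 56.9, 75.7, 179.7 and 73.3 units in FxE Ctrl. The groups lay on top of each other, and the fitted difference was 0.00 ± 0.42 with a 95% interval from 0.52-fold to 1.92-fold (adjusted p = 1). Mfsd4a ran from 148 through 213 to 413 against 127, 91.5, 32.4 and 215 units, with overlap (1.23 ± 0.51, adjusted p = 0.284). Within 24 h alone (4 FxE HA and 2 FxE Ctrl arrays) the log2 differences were 0.47, 1.59, 1.54 and 0.97 for Epha2, Dgcr6, Reln and Mfsd4a, and within 48 h alone (2 and 2 arrays) they were -0.62, 2.17, 1.66 and 1.57. Of these Reln passed at 24 h (adjusted p = 0.0362) and missed at 48 h (0.0524), and Dgcr6 missed at both (0.196 and 0.14). The Dgcr6 call was also lost without FxE Ctrl array 2, 3 or 4 or FxE HA array 6 (0.0503 to 0.101), whereas Reln passed in each of the 10 fits that left out 1 array (0.00534 to 0.0179). Myeloid marker sums spread widely in both groups, 30055 to 137988 units in FxE HA and 30931 to 132488 in FxE Ctrl, and 0 of 14 markers passed by limma, with 0 at an unadjusted p under 0.05.

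The difference between the herbimycin A effects in the 2 systems was itself tested as a contrast of contrasts, in which 0.371% of all probe sets were called, 0.17% as larger in GFPpos. Epha2 was the member that passed: its effect was larger in GFPpos than in FxE HA cells by 3.61 ± 0.64 in log2 (limma, adjusted p = 0.0188). It missed without GFPneg array 2 (0.0636) or GFPpos array 3 (0.0518) and passed without any other 1 of the 16 arrays. For Dgcr6 the difference was 1.39 ± 0.64 (adjusted p = 0.506), for Reln 1.26 ± 0.44 (0.288; -0.11 with a floor of 100) and for Mfsd4a 0.20 ± 0.76 (0.974, 95% interval -1.41 to 1.82), so a difference was not shown for these 3. The cell systems also differ in transgenes, culture and gate, none of which can be told apart from each other here. Unlike the test of FxE HA alone, this fit had no term for hours in culture.

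Antigen was the remaining treatment, read on the separate U74A arrays. All 4 genes were above Ctrl 48h in HEL 48h cells without overlap, and none passed the test across the table, where 0.23% of probe sets were called (0.143% as higher) and 8.48% lay higher without overlap. None passed by the study's criteria either, against 0.342% of all probe sets as higher. Reln was 1009, 2138 and 1976 units after antigen and 196, 326 and 269 units without it, a log2 difference of 2.65 ± 0.37 (limma, adjusted p = 0.082). Epha2 was 381, 882 and 722 against 146, 158 and 94.4 units (2.27 ± 0.39, adjusted p = 0.109). The lowest HEL 48h array of each gene was clear of the highest control array.

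Dgcr6 was 638, 1179.9 and 941 units against 414, 135 and 314 units (1.78 ± 0.48, adjusted p = 0.257), and Mfsd4a 509.7, 326 and 477 against 243, 84.7 and 187 units (1.45 ± 0.44, adjusted p = 0.301). The unadjusted p of the 4 genes were 3.58e-04 for Reln, 0.0011 for Epha2, 0.00975 for Dgcr6 and 0.0162 for Mfsd4a. The fits behind these values treated the arrays as unpaired. With scan day as a block none passed (adjusted p 0.15 to 0.39), nor within the scan day that held 2 arrays of each group (0.348 to 0.614). Blocking on the replicate, which pairs same-numbered arrays, gave adjusted p of 0.213 to 0.42. HEL 48h and Ctrl 48h differ in the GFP gate as well as in antigen, and these cannot be told apart.

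**Figure D3:**
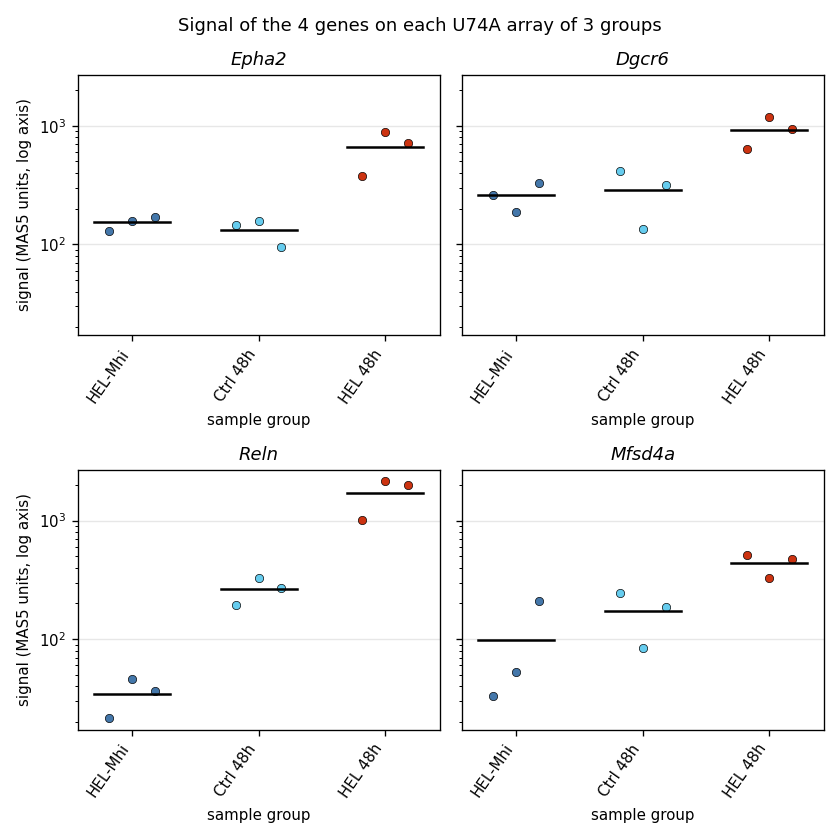
Signals of the 4 genes (MAS5 units, log axis) on the U74A arrays of HEL-Mhi, Ctrl 48h and HEL 48h cells; each point is 1 array and each bar a group mean. In all 4 panels the 3 HEL 48h points lie above the 3 Ctrl 48h points.

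Ordered by group mean, the 10 U74Av2 groups separated differently for each gene. For Epha2 the order was B6-Mneg (2321), GFPpos (1932), Cre-Mlo (1304), FxD (580), Cre-Mhi (241), GFPneg (175), Ctrl-Mhi (153), FxE Ctrl (96.4), FxE HA (91.7) and FxE (59.8). The only neighbors in that order whose arrays did not overlap were Cre-Mlo and FxD. For Dgcr6 it was B6-Mneg (1382), Cre-Mlo (1301), GFPpos (1274), FxE HA (1051), FxD (699), FxE Ctrl (300.7), Cre-Mhi (243), FxE (236), Ctrl-Mhi (217) and GFPneg (153), and the single gap lay between FxD and FxE Ctrl, which put the 3 groups sorted for low or no IgM and the 2 herbimycin A groups on one side and the other 5 on the other.

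For Reln the order was FxD (3699), Cre-Mlo (2743), B6-Mneg (2148), FxE HA (1477), FxE (573), FxE Ctrl (507), Ctrl-Mhi (443), Cre-Mhi (384), GFPpos (278) and GFPneg (43.1), with gaps between FxE HA and FxE and between GFPpos and GFPneg. For Mfsd4a it was Cre-Mlo (873), B6-Mneg (644), GFPpos (354), FxD (294), FxE HA (236), Cre-Mhi (176), GFPneg (148), FxE (138), Ctrl-Mhi (122) and FxE Ctrl (116), with gaps on either side of B6-Mneg. The highest group mean was 9.01 times the lowest for Dgcr6 and 7.49 times for Mfsd4a. For Epha2 it was 38.8 times, but its lowest group, FxE, also had low signals, 46.9 to 84.7 units. Its highest group, B6-Mneg, differs from FxE in strain, culture and RNA amplification as well. No ratio is given for Reln, whose lowest group lay at 20.6 to 65.6 units, near the floor.

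Array by array the members did not form a single pattern. Pearson correlations of log2 signals over the 37 arrays, which share libraries and groups and are given as descriptions, ran from 0.22 for Epha2 with Reln to 0.69 for Epha2 with Mfsd4a. Of the other probe sets with a group mean of at least 500 units, 35.7% correlated better with Epha2 than Reln did and 2.15% better than Mfsd4a did. In GFPpos Epha2 was at 1651 units or more and Reln at 343 or less, in FxE HA Epha2 was at 152 or less and Reln at 1306 or more, and in FxD Epha2 ran from 251 to 845 with Reln at 3414 or more.

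**Figure D4:**
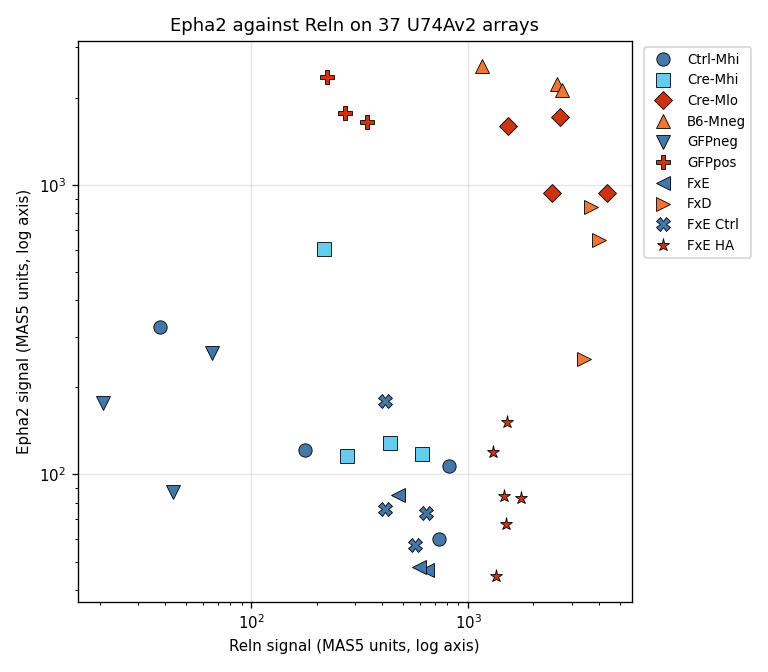
Epha2 against Reln signals (MAS5 units, log axes) on the 37 U74Av2 arrays, 1 point per array with a symbol per group. B6-Mneg and Cre-Mlo are high for both genes, GFPpos is high for Epha2 with Reln at 223 to 343 units, and FxE HA is high for Reln with Epha2 at 44.4 to 152 units.

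The genes most like each member, taken as the 3 with the highest correlation over the 37 arrays, came from several functions. Nearest to Epha2 were Arntl, the clock transcription factor also called Bmal1 (r = 0.89), Igll1, the λ5 part of the surrogate light chain of the pre-B cell receptor (0.85), and Irf4, a transcription factor of light chain rearrangement (0.85). Arntl had means of 16714 units in Cre-Mlo, 15733 in B6-Mneg and 14743 in GFPpos cells but 1397 in FxE Ctrl and 1674 in FxE HA. Nearest to Dgcr6 were Xrcc6, the Ku70 subunit of DNA end joining (0.88), Asf1a, a histone chaperone (0.86), and Jun (0.83).

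Xrcc6, like Dgcr6, was high in FxE HA (mean 15320 units) as well as in Cre-Mlo (12952) and GFPpos (13144), against 3463 in FxE Ctrl and 2547 in Ctrl-Mhi. Nearest to Reln were Herpud1, a protein of the endoplasmic reticulum stress response (0.85), Pla2g12a, a secreted phospholipase (0.80), and Mgst1, a membrane glutathione transferase (0.76). Nearest to Mfsd4a were Jun (0.76), Gpam, which starts triglyceride synthesis (0.76), and Ankrd33b (0.75). Over the 10 group means Arntl remained first for Epha2 (r = 0.96), while Jun (0.96), Polr3k (0.92) and Irs2 (0.94) came first for Dgcr6, Reln and Mfsd4a.

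**Figure D5:**
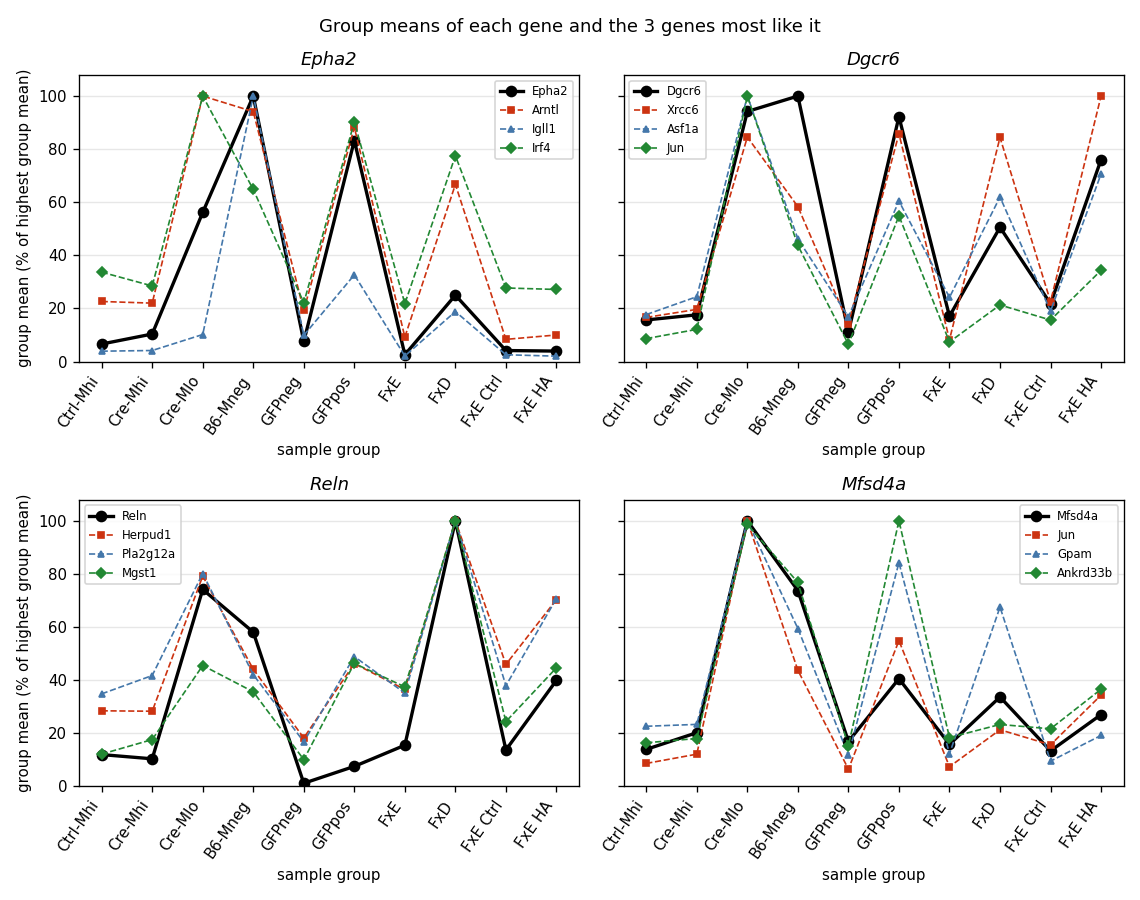
Group means of each gene and of the 3 genes most like it over 37 arrays, each as a percent of its own highest group mean (y axis), in the 10 U74Av2 groups. The lines of Epha2 and Arntl both stay low in FxE Ctrl and FxE HA, those of Dgcr6 and Xrcc6 rise in FxE HA, and Reln falls below its 3 genes in GFPneg and GFPpos.

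Few genes of the members' families passed the tests. Of 21 other Eph receptors and ephrins 15 were measured on U74Av2 and 16 on U74A, and 0 passed in any of the 5 comparisons that the choice did not use by limma or by the study's own criteria for a change. Before adjustment, 0 lay under 0.05 in GFPpos, FxE HA and FxD, 2 in B6-Mneg and 1 in HEL 48h, where the shares of all probe sets were 20.9%, 15.5%, 14.2%, 19.8% and 11.6% in the same order. Their median log2 differences were -0.15 in GFPpos against -0.02 for all probe sets, and -0.30 in B6-Mneg against -0.05.

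Of 21 other genes of the reelin pathway 18 were measured, and 0 passed in those 5 comparisons by limma (7 in FxE HA, 3 in GFPpos, 3 in FxD, 2 in B6-Mneg and 1 in HEL 48h at an unadjusted p under 0.05, and 1 in FxD by the study's criteria). The shares of all probe sets at an unadjusted p under 0.05 were 15.5%, 20.9%, 14.2%, 19.8% and 11.6% in the same order. Between Cre-Mlo and Ctrl-Mhi 5 of the 18 were called, all higher, against 4.23% of all probe sets, and 1 met the study's criteria; the median log2 difference was 0.25 over the list and -0.04 over all probe sets. In the same contrast 0 of 15 Eph receptors and ephrins and 0 of 9 facilitator transporters were called (1 and 0 at an unadjusted p under 0.05), and of 17 genes of the DiGeorge region 1, Cdc45, was called, as lower (-0.79, adjusted p = 0.0439). The 5 were Akt1, a kinase downstream of phosphoinositide 3-kinase (5549.9 ± 555 against 3922 ± 513 units, named after its values were seen to complete the count), Fyn, the kinase that phosphorylates Dab1 (1059 ± 75.8 against 339 ± 206 units), Itgb1, an integrin subunit (4438 ± 142 against 3036 ± 243), Pafah1b3 (32854 ± 189 against 20981 ± 4405) and Pik3r1, the regulatory subunit of phosphoinositide 3-kinase (1269 ± 172 against 770.5 ± 180; n = 4 each). The reelin receptor Vldlr was 158 ± 78.5 against 146 ± 95.7 units, and Dab1 213 ± 39.7 against 279.9 ± 36.5 units. Both were named for their role and neither was called in any comparison. Between Cre-Mlo and Cre-Mhi 2 of the 18 reelin pathway genes were called, as higher, against 3.14% of all probe sets. The Cre-Mlo arrays are shared with the choice of Reln, so nothing is read from either count.

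Of 27 other major facilitator transporters 9 were measured on U74Av2 and 12 on U74A, and 0 passed in the 5 comparisons by limma (2 in GFPpos, 0 in FxE HA, 1 in FxD, 3 in B6-Mneg and 2 in HEL 48h at an unadjusted p under 0.05, and 1 in FxD by the study's criteria). The shares of all probe sets under 0.05 were 20.9%, 15.5%, 14.2%, 19.8% and 11.6% in the same order. Of 34 genes from the mouse counterpart of the DiGeorge region 17 were measured on U74Av2 and 19 on U74A. There Ranbp1, a regulator of nuclear transport, rose in B6-Mneg (log2 difference 0.97 ± 0.18, adjusted p = 0.0445), Pi4ka, a phosphatidylinositol kinase, fell in FxE HA (-1.09 ± 0.22, 0.0284), and in FxD Cdc45, a DNA replication factor, rose (2.65 ± 0.31, 0.0175) and the claudin Cldn5 fell (-1.44 ± 0.23, 0.0316). Of all probe sets 5.04% were called in B6-Mneg, 3.37% in FxE HA and 3% in FxD. No gene of this list passed in GFPpos or HEL 48h by limma, with 7 and 2 at an unadjusted p under 0.05, against 20.9% and 11.6% of all probe sets.

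Of the 24 nearest genes with a probe set of their own, 3 on each side of each member, 0 passed in GFPpos, FxE HA and HEL 48h by limma (10, 4 and 3 at an unadjusted p under 0.05, against 20.9%, 15.5% and 11.6% of all probe sets, and 1, 0 and 0 by the study's criteria). In FxD 1 passed, Nucks1, 3 genes from Mfsd4a (2.25 ± 0.41, adjusted p = 0.0472), where 3% of all probe sets were called (1.74% as higher). In B6-Mneg 1 passed, Ranbp1, 9 genes from Dgcr6, where 5.04% were called (2.65% as higher). Ranbp1 is the same gene as in the DiGeorge list, so nothing is read from these counts.

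Markers of the B lineage moved with the members in part. Of 8 B cell markers 3 fell in FxE HA, 3 in B6-Mneg and 2 in FxD cells, where 2.19%, 2.4% and 1.25% of all probe sets were called lower. In GFPpos 0 of the 8 markers passed by limma (1.21% of all probe sets were called lower). Before adjustment 5 of the 8 lay under 0.05, as did 20.9% of all probe sets, and these 5 moved in both directions. Ptprc (-0.78), Cd22 (-1.33) and Ms4a1 (-3.62) were lower in GFPpos in log2, whereas Blnk (1.25) and Ebf1 (0.64) were higher. On U74A 1 of 9 markers fell in HEL 48h (0.0874% of all probe sets were called lower). Ms4a1, which encodes CD20, was lower by 1.42 in FxE HA (adjusted p = 0.00216), by 4.73 in B6-Mneg (0.00158), by 2.80 in FxD (0.0116) and by 2.60 in HEL 48h (0.038) in log2. Of 7 T cell markers 1, Thy1, fell in GFPpos (794.7 to 293 units, adjusted p = 0.0462), and of 12 stromal markers 0 passed in any of the 5 comparisons by limma (at most 2 at an unadjusted p under 0.05), with sums of 1954 to 4603 units on the U74Av2 arrays of all groups. Their part in the results was not tested.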

How the data were processed

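RNA was hybridized to Affymetrix U74Av2 (37 arrays, 10 groups) and U74A (12 arrays, 4 groups) chips. The deposited values are linear hybridization intensities per probe set, which the authors calculated with Microarray Suite 5.0 (MAS5 in the submitters' processing notes) and scaled to 1500 units after a mask; for HEL 48h, Ctrl 48h and HEL-Mlo the target and mask are not given in the sources used here. The HEL-Mlo arrays have medians of 21.6 to 26.2 units, on another scale, and entered no test. Each test used arrays of 1 table, since the tables had been scaled apart. Of the U74A table, 66 control probe sets were left out, and 2611 others are blank for HEL-Mhi. Arrays limit precision by their number, 3 to 6 a group. Labels give separate samples. The study's methods state 4 independent sorts for each of Ctrl-Mhi, Cre-Mhi and Cre-Mlo, and at most 3 sorts for the other samples. FxE Ctrl has 4 arrays and FxE HA has 6, so some of these arrays may share a sort. The main fits treated all arrays as independent, and p-values measure the spread between arrays.

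Signals under 20 were raised to 20 and taken as log2, because detection p-values are not used here and the methods' rule on them could not be repeated. Linear models came from limma 3.58.1 (lmFit, eBayes; R 4.3.3), two-sided, with Benjamini-Hochberg adjustment across the whole table and calls at an adjusted p under 0.05; errors in the text are SE for log2 differences and SD for signals. The study's legends give the hours of each FxE HA and FxE Ctrl replicate. The background correction could not be varied, since only summarized signals were used. The methods' t-test asks for p under 0.01 (0.05 for FxD against FxE), a fold of 2 and a difference over 200 units. Probe sets were named from the platform annotation (1 gene for 8724 of the U74Av2 and 10276 of the U74A probe sets, several for 346 and 363, none for 907 and 1949), and a gene with several is shown by the brightest. Named are the members, the 3 genes most like each (highest group mean of at least 500 units), up to 4 list genes per comparison that passed, and neighbors that passed. The members and lists were chosen with earlier results of these data known. The fit procedure was tested on simulated data. Python 3.11.15, pandas 2.3.3 and matplotlib 3.10.9 were used.

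Replicate numbers were checked as pairs by correlating deviations from group means over probe sets averaging 500 units or more, a limit set after the check over all probe sets had been seen. Same-numbered HEL 48h and Ctrl 48h arrays correlated at 0.11 to 0.24 and Cre-Mlo and Cre-Mhi arrays at 0.19 to 0.48, so those were taken as paired. Over all probe sets the values were 0.033 to 0.093 and 0.011 to 0.17. The main fits of these comparisons still had no pair term. Pairs entered only the alternative fits with the replicate number as a block. In the other comparisons at least 1 pair was below 0.1.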

Additional observations from a re-analysis of the deposited data

Results flagged for a closer look

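In 3 cases a single array stood apart from its group, judged by the gap to its nearest neighbor over the group's range. The groups of 4 to 6 arrays were examined, 5 for each gene, on linear signals and not on the log2 signals of the tests. Chance alone marks about 1 in 20 of such groups only if linear signals are normally distributed, which was not tested. Epha2 read 600.9 units on Cre-Mhi array 4, where the other 3 arrays read 116 to 129 units. Epha2 read 179.7 units on FxE Ctrl array 3, where the others read 56.9 to 75.7 units, and without that array the log2 difference to FxE HA was 0.32 instead of 0.00. Mfsd4a read 413.1 units on FxE HA array 5, where the others read 148 to 247 units.

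For Epha2 the GFPpos minus GFPneg difference exceeded the FxE HA minus FxE Ctrl difference by 3.61 in log2 (limma, contrast of contrasts, adjusted p = 0.0188). All 3 GFPpos arrays lay above all 3 GFPneg arrays, and the 6 FxE HA arrays overlapped the 4 FxE Ctrl arrays. In GFPpos cells drug and GFP gate cannot be told apart, and the cell systems differ in more than the drug's effect.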

How the results depend on the processing

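Counts of probe sets called across each table moved with the processing. By the methods' t-test criteria they were 285 (29 with adjusted p) against 831 for Cre-Mlo with Ctrl-Mhi, 217 (21) against 607 for Cre-Mlo with Cre-Mhi, 219 (26) against 336 for FxE HA, 515 (1) against 299 for FxD, 214 (0) against 503 for B6-Mneg, 100 (0) against 29 for HEL 48h, and with adjusted p 1 against 258 for GFPpos; beside the counts of 0, 1501 (B6-Mneg) and 1047 (HEL 48h) lay at an unadjusted p under 0.05. With a floor of 100 they were 494 for GFPpos, 54 for HEL 48h and 160 against 37 for the difference of herbimycin A effects. After dropping probe sets with means under 200 they were 736 for GFPpos, 535 for FxE HA, 500 for FxD, 813 for B6-Mneg, 73 for HEL 48h and 96 for the difference of effects. With the replicate number as a block they were 0 for GFPpos, FxD and HEL 48h (1790, 1185 and 1368 at an unadjusted p under 0.05), 21 for B6-Mneg and 45 for FxE HA, where 4 of the 6 FxE HA arrays share a number with FxE Ctrl and hours were left out; for Cre-Mlo it gave 675 with Ctrl-Mhi and 447 with Cre-Mhi, within 1.5 times of the counts without it. With the block, adjusted p were 0.176 to 0.187 for the 3 members called in GFPpos, 0.0723 and 0.0843 for Epha2 and Dgcr6 in B6-Mneg (Reln passed, 0.0346), 0.111 and 0.109 for Epha2 and Reln in FxD, and 0.243 and 0.0703 for Dgcr6 and Reln in FxE HA. HEL 48h gave 0 with scan day as a block and 0 within the day with 2 arrays a group, an alternative chosen after seeing the data (1355 and 1113 at an unadjusted p under 0.05). Within 24 h and 48 h alone FxE HA gave 115 and 92. Leaving out 1 array gave 581 to 882 for Cre-Mlo with Ctrl-Mhi, 387 to 565 with Cre-Mhi, 1 to 91 for GFPpos, 186 to 323 for FxE HA, 0 to 125 for FxD, 166 to 282 for B6-Mneg, 0 to 3 for HEL 48h and 21 to 64 for the difference of effects.

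Of 473 alternative values of the members, 399 were labeled unchanged, 53 lost and 7 gained a call, and 14 changed sign. In the tested comparisons, unchanged means the same direction and side of the threshold. The 399 include all 17 alternatives of each gene in each of the Cre-Mlo comparisons. Those chose the genes or share their arrays and were not tested. Unchanged there means only the same direction and a shift smaller than the SD of single arrays in the fit. The sign changed only in the herbimycin A results, none of them called: Epha2 in FxE HA was -0.17 after quantile normalization, -0.058 with a floor of 100, -0.0018 on log2(signal + 16), -0.030 without hours, -0.62 within 48 h alone and -0.23 to 0.32 with 1 array left out. The difference of effects was -0.11 for Reln with a floor of 100 and -0.36 to 0.72 for Mfsd4a with 1 array left out. In FxD, Epha2 missed with a floor of 100 (adjusted p = 0.109) and after quantile normalization (0.0544), and Dgcr6 passed once means under 200 were dropped (0.0396), as did Reln in HEL 48h (0.039). Mfsd4a in B6-Mneg passed with 4 other scalings or filters (0.0221 to 0.041). The cause of these changes was not tested.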

Other observations

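HEL-Mlo cells, sorted as IgMa-low from HEL-Ig cultures, are on a scale of their own, so each value is given as the percent of probe sets with a lower signal on the same array. Epha2 stood at 43.7, 15.6 and 63.2 on the 3 HEL-Mlo arrays, Dgcr6 at 55.3, 38.4 and 48.8, Reln at 8.51, 33.9 and 28.6, and Mfsd4a at 27.8, 7.11 and 41.9.

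In HEL-Mhi cells Reln was 21.7, 45.9 and 36.5 units and Epha2 130.1, 159 and 170.3 units. Dgcr6 was 259, 189 and 328 units and Mfsd4a 33.1, 53.1 and 209.5 units. Except for Reln, whose HEL-Mhi arrays all lay below Ctrl 48h, these overlapped the Ctrl 48h arrays of the same table; how the groups were processed together is not given in the sources used here, and no test was made.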
